A study of Homo sapiens with 6 samples.

Results

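The epithelial alarmins and the IL-1 family were examined as 10 genes chosen by name: *TSLP*, *IL33*, *IL25*, *IL1A*, *IL1B*, *IL1RN*, *IL1R1*, *IL1RL1*, *IL18* and *IL36G*. All 10 have a row among the 61228 genes of the count table. RNA-seq was performed on HBECs, an immortalized human bronchial epithelial line that the labels give as wild type. The cells were treated for 24 h with cockroach extract (CRE), an allergen preparation, or with CRE plus 20 µM VAF347. VAF347 is a small-molecule agonist of the aryl hydrocarbon receptor (AhR), and the paper's culture methods describe it as a pre-treatment before CRE. Each condition had 3 libraries, and both conditions carried CRE, so the comparison gives what VAF347 added to CRE and says nothing of CRE itself. Libraries of untreated cells or of cells given VAF347 alone were not analysed here.

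Alarmins are cytokines that an epithelial barrier releases on injury or allergen contact. TSLP, IL-33 and IL-25 act on dendritic cells, mast cells and innate lymphoid cells and are known in asthma as upstream signals of type 2 inflammation. The IL-1 family works through paired receptors that signal by MYD88 to NF-κB: IL-1α and IL-1β bind IL1R1, the antagonist encoded by *IL1RN* occupies that receptor without signalling, IL-33 binds the product of *IL1RL1* (ST2), and IL-18 and IL-36γ have receptors of their own. IL-1β and IL-18 are made as precursors that caspase-1 cleaves, whereas IL-1α and IL-33 can be released from damaged cells.

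Library totals ranged from 8873160 to 10750283 counts, so that 3 counts, the floor used here for detection in a library, equalled 0.279 to 0.338 CPM (counts scaled to library size). The 4 AhR target genes on the check list were all higher with VAF347 and passed the thresholds, *CYP1A1* by 6.20 on the log2 scale. Epithelial markers were abundant (summed TPM 3310 to 4106 in CRE and 3332 to 3435 in CRE + VAF347), but the basal factor *TP63* had at most 1 count in a library, and *SCGB1A1* and *MUC5AC*, which mark club and goblet cells, had 0. Of 11 markers of leukocytes, mast cells, endothelium and fibroblasts, 8 had at most 3 counts in every library and 4 of these had 0 throughout. CRE replicate 3 stood apart from the other CRE libraries, with mean chi-square values per gene of 8.52 and 8.24 against them, compared with 2.38 between CRE replicates 1 and 2. The labels do not say that replicates came from separate cultures, so p-values measure the spread between these libraries, which may be technical.

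The promoter windows below show where the AhR core motif lies near genes of the IL-1 receptor system. AhR with its partner ARNT binds DNA at the core GCGTG, and RefSeq windows of the 250 bases before a transcript start (build GRCh38.p14) were available for 8 of the 10 genes, in 18 windows. The core, searched on both strands, was present in 4 of the 18 windows (22.2%), from *IL1A*, *IL1R1* and *TSLP*, whereas 32.2% of all 35116 windows of the same length hold it. The windows of *IL1A*, *IL1RN* and *IL1R1* are printed because these genes encode an agonist, the antagonist and the shared receptor, and because the first and the last of them hold the core. Each runs 5′ to 3′ on the strand of its gene and ends at the base before the start, and capitals mark the core or its reverse complement.
IL1A (chr2:112784494-112784743, - strand): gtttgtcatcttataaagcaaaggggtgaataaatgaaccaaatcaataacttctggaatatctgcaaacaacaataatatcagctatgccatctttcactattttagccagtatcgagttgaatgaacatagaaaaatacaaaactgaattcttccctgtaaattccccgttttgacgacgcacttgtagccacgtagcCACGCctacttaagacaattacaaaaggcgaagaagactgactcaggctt
IL1RN (chr2:113117721-113117970, + strand): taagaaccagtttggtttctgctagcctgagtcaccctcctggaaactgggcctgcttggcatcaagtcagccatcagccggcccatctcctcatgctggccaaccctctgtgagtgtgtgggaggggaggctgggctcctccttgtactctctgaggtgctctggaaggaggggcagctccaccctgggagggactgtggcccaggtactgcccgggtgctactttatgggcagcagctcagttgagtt
IL1R1 (chr2:102142056-102142305, + strand): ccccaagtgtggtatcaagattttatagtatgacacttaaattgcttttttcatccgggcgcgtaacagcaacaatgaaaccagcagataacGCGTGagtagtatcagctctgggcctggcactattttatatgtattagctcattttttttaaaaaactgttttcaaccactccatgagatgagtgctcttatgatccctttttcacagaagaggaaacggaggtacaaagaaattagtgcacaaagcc
In the printed *IL1A* window the core lay on the opposite strand at -50. In *IL1R1* it lay on the gene's strand at -158 from a start inside the gene, and the other *IL1R1* windows did not hold it. In the printed *IL1RN* window, whose start also lies inside its gene, these letters were not found. A motif related to AP-1 sites, TGANTCA, was in 4 of the 18 windows and is held by 6.57% of all windows. It lay at -12 in the printed *IL1A* window and at -223 in the printed *IL1RN* window, at -105 and -55 of the other *IL1A* start and at -191 in an *IL1RL1* window. The other *IL1RN* windows did not hold these letters. The *IL1A* windows overlap, so the matches at -12 and -105 are the same site. The core of the *IL1A* windows, at -50 and -143, is likewise the same site, and the window counts include it for each window. A match describes the sequence and is not evidence of binding.

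Of the 10 genes, 5 were above 3 counts in every library and 5 were not above 3 counts in any. The genes above the floor were *IL18*, *IL1RN*, *IL1R1*, *IL1A* and *IL1B*. The 3 classical alarmins were all among the genes under it. *IL33* (chr9:6215786-6257983), *IL25* (chr14:23372809-23376403) and *IL1RL1* (chr2:102311502-102352037), the gene of the IL-33 receptor, had 0 counts in all 6 libraries, which allows at most 3 counts, or 0.279 to 0.338 CPM, in each. *TSLP* (chr5:111070062-111078026) had 1 count in CRE + VAF347 replicate 2 and 0 in the other 5 libraries. *IL36G* (chr2:112973203-112985658), which encodes an agonist of the IL-36 receptor, was seen with 0, 1 and 2 counts under CRE and with 0, 3 and 0 counts under CRE + VAF347. No difference between the conditions was detectable at this depth for these 5 genes, and no fold change is given. Positions here and below are from GENCODE v44 on GRCh38, and all 10 genes are protein coding.

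**Figure D1:**
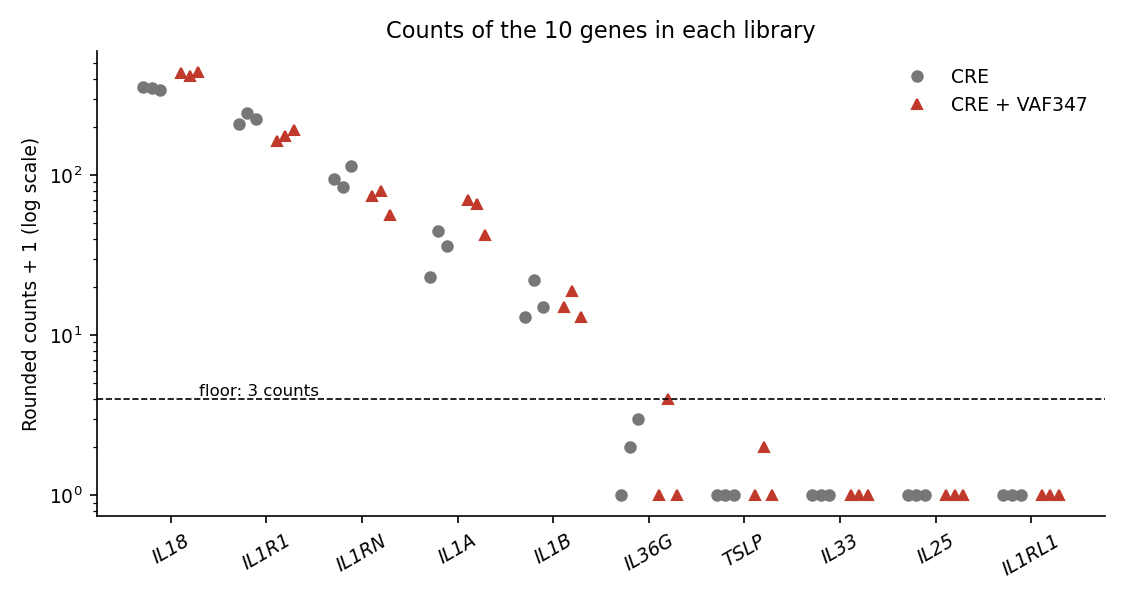
Rounded counts of the 10 genes in each library, plotted as counts + 1 on a log axis. Circles are the 3 CRE libraries, triangles the 3 CRE + VAF347 libraries and the dashed line 3 counts. *IL18*, *IL1R1*, *IL1RN*, *IL1A* and *IL1B* lie above the line in all 6 libraries, and the other 5 genes do not exceed it in any.

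Among the 5 genes above the floor, *IL18* had the highest level per transcript length. In TPM, which is scaled for length, *IL18* averaged 77.5 ± 0.919 (SD, n = 3) in CRE and 99.6 ± 3.99 in CRE + VAF347 and made up 73.9% to 76.9% and 77.7% to 83.7% of the summed TPM of the 10 genes. Its mean over the 6 libraries was at percentile 86.3 of all genes tested. In CRE the order below it was *IL1RN* (10.6 ± 2.10 TPM), *IL1R1* (8.45 ± 0.122), *IL1A* (4.00 ± 1.24) and *IL1B* (2.11 ± 0.603). In CRE the libraries of *IL1RN* and *IL1R1* overlapped, as did those of *IL1A* and *IL1B*. In CRE + VAF347 the means were 7.72 ± 1.66 TPM for *IL1RN*, 7.31 ± 2.19 for *IL1A* and 7.07 ± 0.613 for *IL1R1*, which all overlapped, and *IL1B* was lowest at 2.03 ± 0.442.

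The comparison of CRE + VAF347 with CRE asked how an AhR agonist altered these genes in allergen-exposed cells. With edgeR's quasi-likelihood test, 0 of the 5 genes tested passed both thresholds (adjusted p under 0.05, log2 fold change over 0.5 in size), whereas 2.21% of the 15373 genes tested did (0.501% higher and 1.71% lower). DESeq2 and limma on log2 TPM also called 0 of them, and 3 of the 5 had an unadjusted p under 0.05, as did 20.8% of all genes tested. On the adjusted p alone 1 of the 5 passed, *IL18*, against 5.42% of all genes tested (1.35% higher and 4.07% lower). The 2 groups of libraries did not overlap in CPM for 2 of the 5 genes, *IL18* and *IL1R1*, and for 27.3% of all genes. The median log2 fold change of the 5 was 0.01, as it was over all genes tested. A set of 5 genes is too small to set these shares apart from the background.

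*IL18* encodes the IL-18 precursor, which epithelial cells store and which caspase-1 matures. It lies at chr11:112143253-112164096 on the minus strand. In the order of the replicate numbers, kept for every gene here, its CPM was 36.4, 34.3 and 31.5 under CRE and 48.3, 43.2 and 43.8 under CRE + VAF347. Every CRE + VAF347 library was above every CRE library. The means were 34.1 ± 2.48 and 45.1 ± 2.79 CPM (SD, n = 3), a log2 fold change of 0.40 (SE 0.08, 95% interval 0.23 to 0.58) or 1.32-fold, with an adjusted p of 0.0162 in edgeR. The change was under the fold threshold of 0.5 and ranked 380 by p among all genes. An exact two-sided permutation test over the libraries gave p = 0.1, the smallest that 3 against 3 allows. The adjusted p of *IL18* rested on several libraries: it was 0.0524 without CRE replicate 2 and 0.0931, 0.0602 and 0.0665 without CRE + VAF347 replicates 1, 2 and 3, while without CRE replicate 3 the log2 fold change was 0.35 (adjusted p = 0.0116, edgeR). In limma on log2(TPM + 1) the difference was 0.36 (adjusted p = 0.125), and over all alternatives the adjusted p ranged from 0.000502 to 0.142. In bulk samples, a change in the number of cells making a transcript and a change in transcript per cell cannot be told apart. This holds here and for each gene that follows.

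*IL1A* encodes IL-1α, an agonist that is active in its uncleaved form and lies at chr2:112773925-112784493 on the minus strand. Its CPM was 2.28, 4.32 and 3.27 in CRE and 7.75, 6.83 and 4.09 in CRE + VAF347. CRE + VAF347 replicates 1 and 2 were above every CRE library, whereas replicate 3 was below CRE replicate 2. The means were 3.29 ± 1.02 and 6.23 ± 1.91 CPM (SD, n = 3). The log2 fold change of 0.90 (SE 0.28, 95% interval 0.30 to 1.51), or 1.87-fold, was the furthest from 0 among the 5 genes but did not pass the adjusted p (0.0872, edgeR; unadjusted p = 0.00734; exact permutation p = 0.2). The libraries held 22 to 69 *IL1A* counts. The coefficient of variation in CRE was 31.0%, where counting error alone would give 17.2%. Without the filter on low counts the adjusted p was 0.000604, which would make *IL1A* the only called gene of the 5, and over the other alternatives it ranged from 0.0526 to 0.643.

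*IL1B* encodes IL-1β, the agonist that needs caspase-1 for maturation, and lies at chr2:112829751-112836816 on the minus strand. Its CPM was 1.24, 2.06 and 1.31 in CRE and 1.57, 1.89 and 1.20 in CRE + VAF347. The groups overlapped fully, and the means were 1.54 ± 0.454 and 1.55 ± 0.348 CPM (SD, n = 3). Their log2 fold change was 0.01 (SE 0.32; adjusted p = 0.991, edgeR). With 12 to 21 counts a library, its 95% interval of -0.68 to 0.71 leaves room for folds from 0.622 to 1.63, so the test does not show that *IL1B* was the same in both conditions.

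*IL1RN*, the antagonist gene at chr2:113099315-113134016 on the plus strand, had 9.73, 8.14 and 10.6 CPM in CRE and 8.20, 8.30 and 5.49 in CRE + VAF347. CRE + VAF347 replicate 3 was lowest, and the other CRE + VAF347 libraries were just above CRE replicate 2. The means were 9.48 ± 1.23 and 7.33 ± 1.60 CPM (SD, n = 3), a log2 fold change of -0.38 (SE 0.18, 95% interval -0.77 to 0.01) that did not pass the test (adjusted p = 0.253, edgeR; exact permutation p = 0.3). Without CRE + VAF347 replicate 3 the log2 fold change was -0.21.

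*IL1R1*, the signalling receptor of IL-1α and IL-1β at chr2:102064544-102179874 on the plus strand, had 21.5, 23.7 and 20.8 CPM in CRE and 18.3, 18.4 and 18.9 in CRE + VAF347. Every CRE + VAF347 library was below every CRE library, and the CRE + VAF347 libraries lay closer together than counting error alone would give (coefficient of variation 1.58% against 7.54%). The means were 22.0 ± 1.51 and 18.5 ± 0.292 CPM (SD, n = 3). The log2 fold change of -0.25 (SE 0.09, 95% interval -0.45 to -0.05) had an unadjusted p of 0.0187 and an adjusted p of 0.146 in edgeR and passed in 0 of the alternatives. The exact permutation p was 0.1, again the smallest possible.

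**Figure D2:**
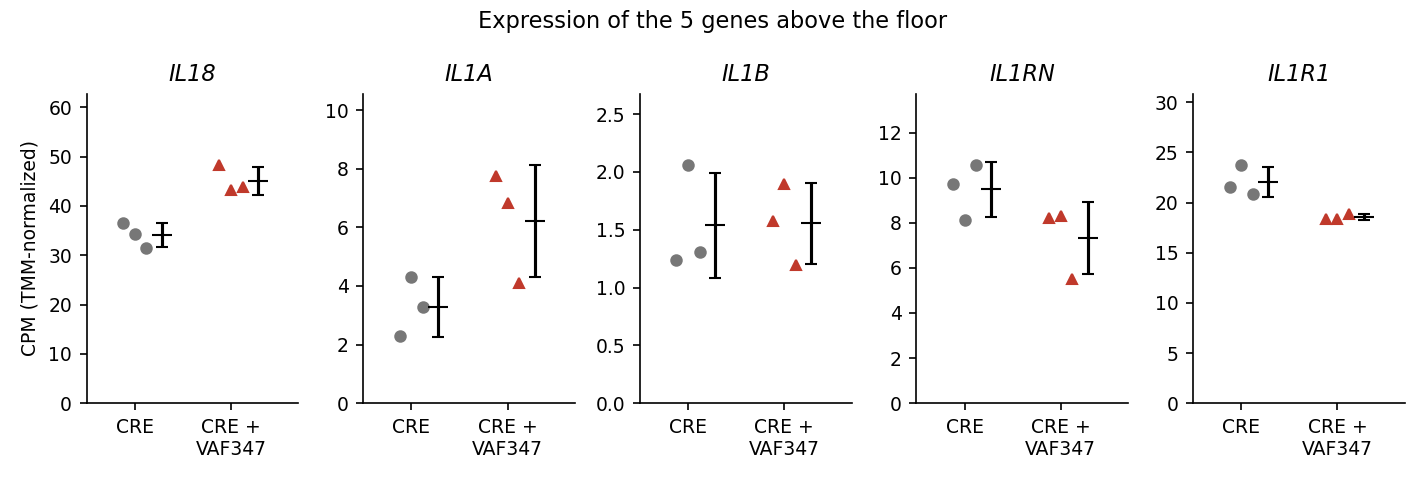
CPM of the 5 genes above the floor in each library, with a panel and a linear axis from 0 for each gene. Circles are CRE and triangles CRE + VAF347 libraries, and bars show the mean ± SD (n = 3). The groups are apart for *IL18* (31.5 to 36.4 against 43.2 to 48.3) and *IL1R1* (20.8 to 23.7 against 18.3 to 18.9) and overlap for the other 3 genes.

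**Figure D3:**
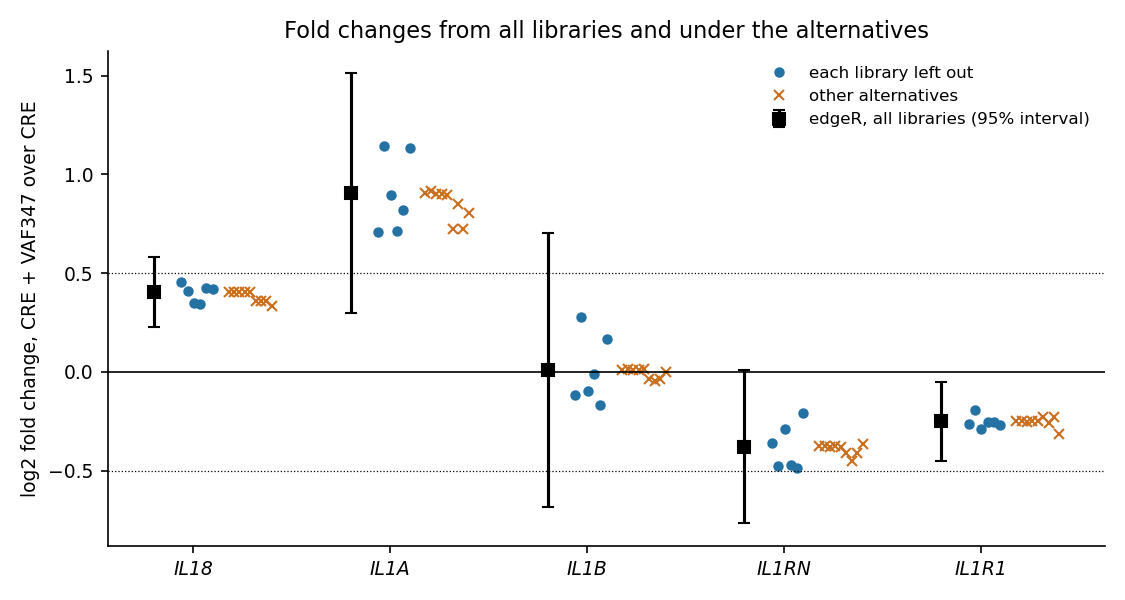
Log2 fold change of CRE + VAF347 over CRE for each of the 5 genes. Squares with bars are edgeR estimates with 95% intervals from all 6 libraries, circles leave out 1 library each, and crosses are the other alternatives (other normalization, filters, DESeq2, limma, replicate block and GC offset). Dotted lines mark the fold threshold of 0.5 in each direction. *IL18* stays between 0.33 and 0.45, *IL1A* between 0.71 and 1.15, and *IL1B* falls on both sides of 0.

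Fold changes followed the base composition of transcripts among the more highly expressed genes, set in 10 equal bins of 1111 genes. The median log2 fold change was 0.11 for the most GC-poor bin and -0.09 for the most GC-rich. *IL1A* and *IL1B* were too low in level to be in these bins. The GC offset below was also fitted on the more highly expressed genes. *IL1A* (38.7% GC), *IL18* (41.3%) and *IL1R1* (42.3%) are on the low side, and *IL1B* (48.3%) and *IL1RN* (51.0%) are higher. With a GC offset for each library, added after the data were seen, *IL18* had a log2 fold change of 0.33 (adjusted p = 0.0385, edgeR), *IL1A* 0.80 (0.148) and *IL1R1* -0.31 (0.0919).

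The antagonist was also read against the agonists in each library, a ratio chosen after the values were seen and given without a test. Summed *IL1A* and *IL1B* was 4.39, 7.92 and 6.04 TPM in CRE and 11.1, 10.5 and 6.42 in CRE + VAF347. *IL1RN* per summed agonist was 2.45, 1.06 and 2.08 in CRE and 0.772, 0.839 and 0.905 in CRE + VAF347. All 3 CRE libraries had more antagonist than agonist TPM and all 3 CRE + VAF347 libraries had less, although CRE replicate 2 was near the CRE + VAF347 values. The means were 1.86 ± 0.720 and 0.839 ± 0.0667 (SD, n = 3), and the mean log2 ratio differed by -1.07. Leaving out 1 library at a time gave -1.43 to -0.82. The genes of the ratio did not pass the test by themselves. *IL1A* made up 60.6%, 64.5% and 70.2% of the summed agonist TPM in CRE and 81.5%, 76.6% and 75.5% in CRE + VAF347, again without overlap. In CPM, the groups did not overlap for 27.3% of all genes tested.

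**Figure D4:**
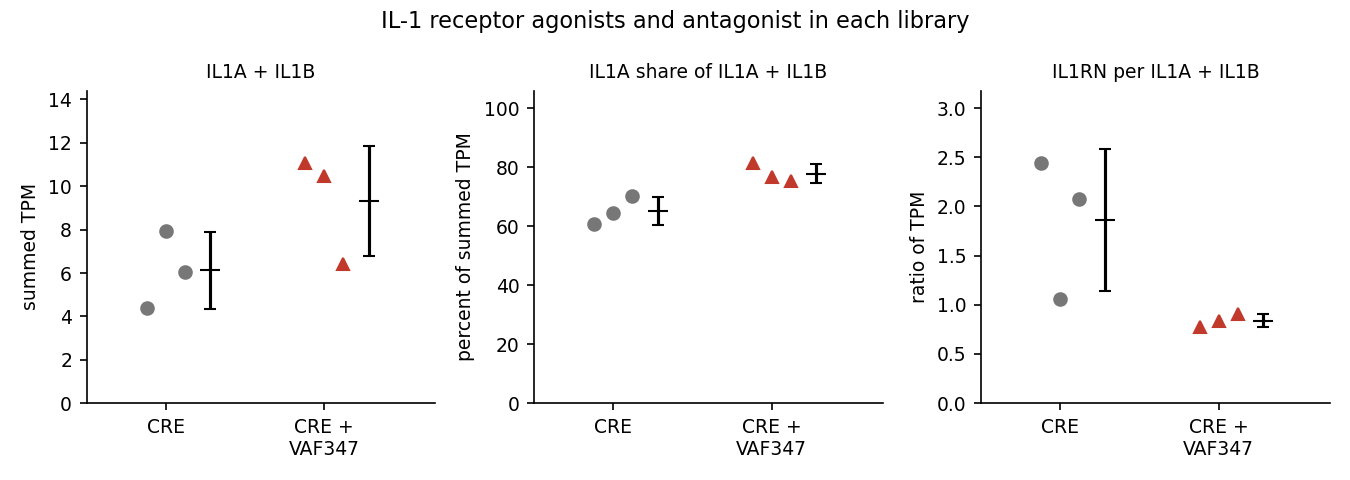
Summed TPM of *IL1A* and *IL1B* (left), the share of *IL1A* in that sum in percent (middle) and the ratio of *IL1RN* to it (right) in each library. Circles are CRE, triangles CRE + VAF347, and bars the mean ± SD (n = 3). The ratio is 1.06 to 2.45 in CRE and 0.772 to 0.905 in CRE + VAF347.

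The other genes of these pathways were taken from 6 lists of 57 genes, of which 42 were tested. With edgeR, 1 rose and 2 fell past both thresholds, where 0.501% of all genes tested were higher and 1.71% lower. At any fold, 1 was higher and 9 lower at an adjusted p of 0.05, against 1.35% and 4.07% of all genes. Their median log2 fold change was -0.04, against 0.01 over all genes. The lists were chosen with earlier results of these data known, so these counts are a description and not a test. DESeq2 also called 1 higher and 2 lower. The 9 lower genes became 5 without CRE replicate 1 and 3 without each of the CRE + VAF347 replicates.

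The remaining ligands and receptors gave no call. Of 5 other ligands, *IL36A* and *IL36B* had 0 counts in all libraries and only *IL36RN*, the antagonist of the IL-36 receptor, was tested (1.54 ± 0.382 and 0.849 ± 0.385 CPM, log2 fold change -0.86, SE 0.38, adjusted p = 0.228, edgeR). Of 7 other receptors and decoys, 4 were tested and 0 passed, with 0 also at an unadjusted p under 0.05. These were *IL1RAP*, the accessory chain that IL1R1 needs to signal (14.0 ± 0.932 and 12.2 ± 0.254 CPM), *IL18R1*, the IL-18 receptor chain (6.86 ± 1.44 and 5.13 ± 1.08), the inhibitory receptor *SIGIRR* and *IL18BP*, the soluble IL-18 decoy (27.7 ± 1.49 and 29.3 ± 1.85). The decoy *IL1R2*, the IL-36 receptor *IL1RL2* and the IL-18 receptor chain *IL18RAP* had at most 3 counts in every library. Of 4 receptor genes of TSLP and IL-25, 3 were tested and 0 passed the adjusted p in edgeR. The gene not tested, the TSLP receptor gene *CRLF2*, had 0 to 5 counts a library. Of the 3, 1 had an unadjusted p under 0.05, as did 20.8% of all genes tested. It was *IL7R*, the chain that TSLP shares with IL-7 (log2 fold change -0.78, adjusted p = 0.180, edgeR).

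Most genes of inflammasome assembly and cytokine maturation were expressed and did not pass the test, and *CASP5* had 0 counts in every library. Of 12, 11 were tested, with 0 called and a median log2 fold change of 0.03. *CASP1*, which matures IL-1β and IL-18, was at 19.6 ± 2.56 and 16.5 ± 1.81 CPM (log2 fold change -0.25, adjusted p = 0.275, edgeR). *CAPN1* and *CAPN2*, calpains that can process IL-1α, were lower at an adjusted p of 0.05 but under the fold threshold. Over all genes tested, 4.07% were lower at that adjusted p. *CAPN1* was at 601 ± 2.62 and 480 ± 5.01 CPM (log2 fold change -0.32, adjusted p = 0.00602, edgeR) and *CAPN2* at 474 ± 26.4 and 391 ± 2.78 (-0.28, 0.0232). Of 12 genes of receptor-proximal signalling (*MYD88*, the IRAK kinases, *TRAF6* and the TAB adaptors among them), 11 were tested and 0 passed the adjusted p in edgeR. An unadjusted p under 0.05 was found for 2 of the 11, against 20.8% of all genes tested. The median log2 fold change of the 11 was 0.04.

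The list of genes known to respond to IL-1 held the calls. Of 17, 12 were tested, 1 was called higher and 2 lower, and at any fold 1 was higher and 7 lower at an adjusted p of 0.05, with a median log2 fold change of -0.31. Over all genes tested, 0.501% were called higher and 1.71% lower, and at any fold 1.35% were higher and 4.07% lower. The list was chosen with earlier results of these data known, so its counts do not test whether such genes stand out. *IL6*, an inflammatory cytokine, rose from 6.32, 5.98 and 4.39 CPM in CRE to 9.89, 12.8 and 11.7 in CRE + VAF347 (log2 fold change 1.05, SE 0.17, adjusted p = 0.00468, edgeR). By RT-PCR, the paper reports that VAF347 lowered IL-6 and IL-1β in CRE-treated HBECs, for *IL6* the other direction from these libraries. Why the measures differ was not tested. *LCN2*, an iron-sequestering antimicrobial protein, fell from 146, 175 and 130 CPM to 81.7, 81.1 and 64.1 (-0.99, SE 0.12, adjusted p = 0.000695, edgeR). *ICAM1*, a leukocyte adhesion ligand, fell from 48.0, 61.0 and 67.6 CPM to 38.5, 37.7 and 26.9 (-0.78, SE 0.14, adjusted p = 0.00994, edgeR). In each of these genes the groups did not overlap in CPM, as for 27.3% of all genes tested. The same values gave the calls, so this adds no separate support. The other 5 that passed the adjusted p were under the fold threshold and were lower: the NF-κB regulators *NFKBIA* (-0.29), *TNFAIP3* (-0.33), *NFKBIZ* (-0.37), *ZC3H12A* (-0.35) and *BIRC3* (-0.39). *CXCL8* (log2 fold change -0.29, adjusted p = 0.527, edgeR), *CXCL2* (0.83, 0.184) and *SOD2* (0.01, 0.969) did not pass. Many signals other than IL-1 act on these genes, and which of them did so here was not tested.

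**Figure D5:**
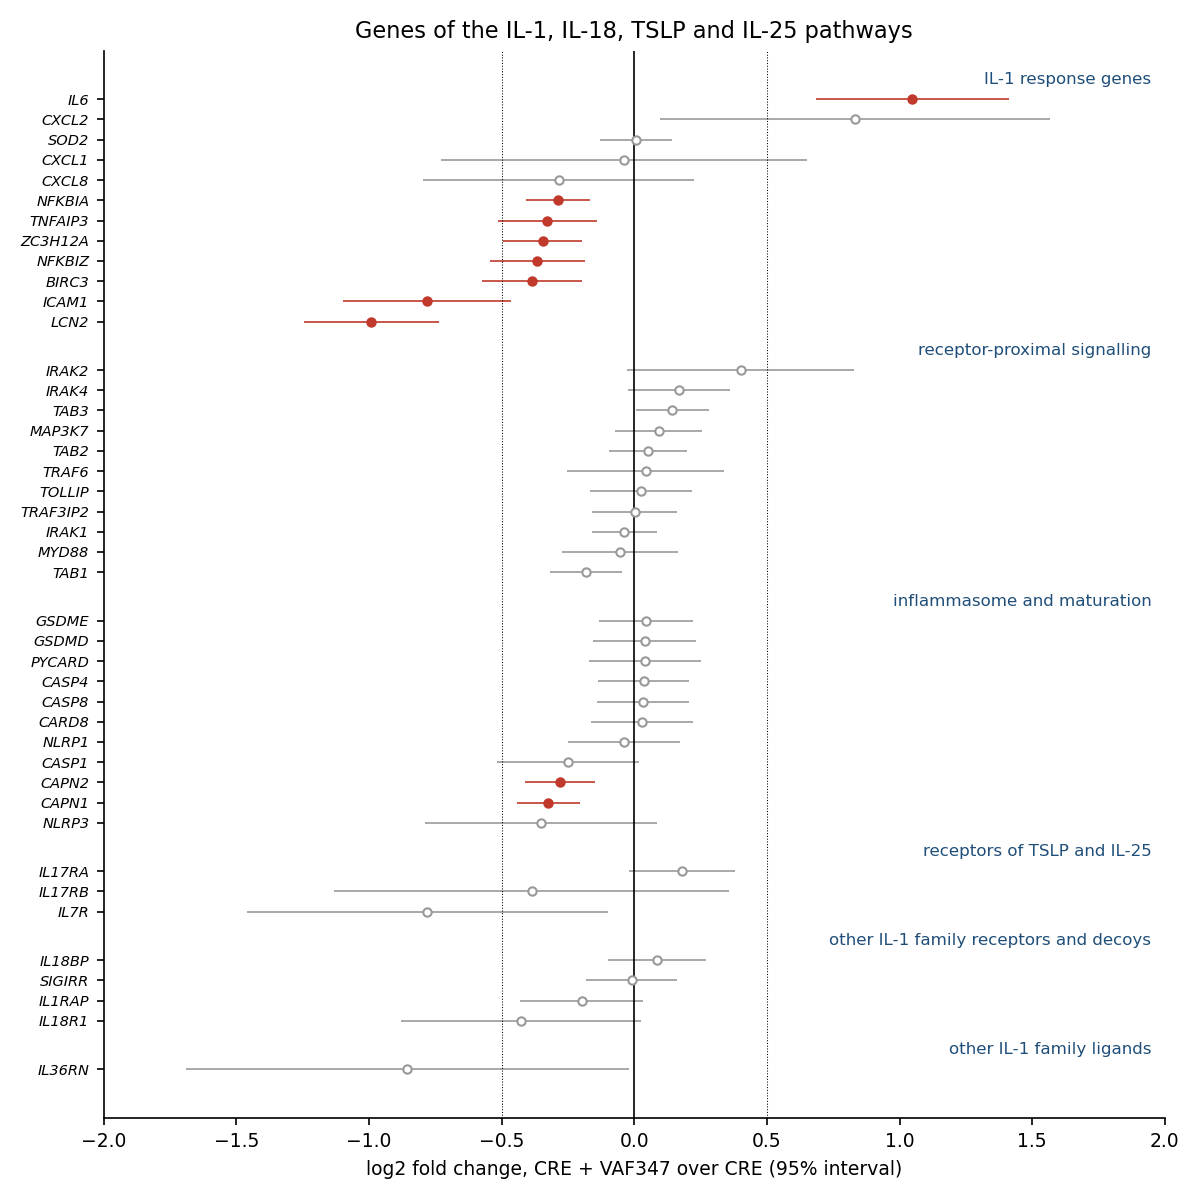
Log2 fold change of CRE + VAF347 over CRE for the 42 tested genes of the 6 pathway lists, with 95% intervals from edgeR. Filled red points passed an adjusted p of 0.05 and open points did not, and dotted lines mark 0.5 in each direction. *IL6* lies at 1.05, *LCN2* at -0.99 and *ICAM1* at -0.78, and the genes of receptor-proximal signalling lie between -0.18 and 0.40.

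Markers of other cells were mostly under detection. The summed TPM of the 11 markers of leukocytes, mast cells, endothelium and fibroblasts was 22.7 to 25.7 in CRE and 14.4 to 20.4 in CRE + VAF347, and its part in the results above was not tested. Most of that sum was *CD68* (23.2 ± 1.75 and 17.4 ± 3.18 TPM), which did not pass the test (log2 fold change -0.43, adjusted p = 0.0912, edgeR). Only *CD68* (25.7 ± 2.46 and 19.1 ± 3.68 CPM) and *VWF* (3.29 ± 0.695 and 1.20 ± 0.149) were tested, and the second was called lower (log2 fold change -1.45, adjusted p = 0.0107, edgeR). The pan-leukocyte *PTPRC* had at most 3 counts in any library and the mast cell marker *CPA3* and the fibroblast markers *DCN* and *LUM* had 0. *IL1RL1* shares its strand and part of its span with *IL18R1*, which had 39 to 91 counts a library while *IL1RL1* had 0. The opposite-strand genes that overlap *IL18*, *IL1R1*, *IL36G* and *TSLP* had 0 counts in every library.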

How the data were processed

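The data are 6 RNA-seq libraries of HBECs (3 CRE, 3 CRE + VAF347), grouped from the sample labels, which name the table columns; 0 columns were left unmatched. The authors made libraries by poly(A) enrichment, sequenced them as paired ends and estimated expected counts with Salmon (build hg38 in the submitters' processing notes); its version, the annotation and the strand setting are not given in the sources used here. The deposited TPM values are from the same step. A further table, deposited by the authors, holds their own log2 fold changes and p-values and was not used. All 61228 gene names were found in GENCODE v44.

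Expected counts were rounded (14.5% of values were not whole) and fitted for all genes with edgeR 4.0.16 under R 4.3.3 (TMM, filterByExpr, quasi-likelihood test, Benjamini-Hochberg adjustment). A call needed an adjusted p under 0.05 and a log2 fold change over 0.5 in size. SE is the log2 fold change divided by the square root of F. Levels are CPM after TMM, or TPM between genes. Permutation tests were exact and two-sided. Intervals and floors cover counting error or library spread only, and reads had no molecular identifiers. DESeq2 1.42.0, limma 3.58.1 on log2(TPM + 1) and other settings were alternatives. The edgeR fit, its replicate block and GC offset, and DESeq2 were checked on simulated data, as was limma on log2(CPM + 1). The simulated data held no GC trend, and the other settings were not checked in this way. The genes named are the 10 members, the called genes of the pathway lists and members of those lists given as examples. *VWF*, *CD68*, *CASP1* and the examples that did not pass the test were chosen with their values known. Some marker genes on the lists are not reported here by name. The members and lists were chosen with earlier results of these data known.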

Additional observations from a re-analysis of the deposited data

How the results depend on the processing

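The 6 libraries with 9855904 counts on average limit what the genes with few counts can show: *IL1B* had 12 to 21 counts a library, and the 5 genes at or under 3 counts could not be compared.

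Genes called numbered 77 higher and 263 lower. Without the filter on low counts they were 187 and 411, with limma on log2(TPM + 1) 34 and 50, on log2(TPM + 0.1) 32 and 52 and without its filter 20 and 12, on the adjusted p at any fold 207 and 626, and on an unadjusted p with the fold threshold 247 and 502. Leaving out 1 library gave 58 to 110 higher and 143 to 270 lower, the fewest lower without CRE + VAF347 replicate 3. Of the 5 tested genes of the family, 0 were called, and 1 without the filter, 1 on the adjusted p at any fold and 1 on the unadjusted p. The 1 gene past the adjusted p became 2 without the filter, 0 in each limma fit and 0 to 1 with a library left out. Of the other pathway genes, the 1 called higher became 0 with limma without a filter and 2 on the unadjusted p. The 2 called lower became 1, 1 and 0 in the limma fits, 9 on the adjusted p and 4 on the unadjusted p. The 9 lower at any fold became 1, 1 and 0 with limma and 3 to 8 with a library left out.

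*IL1A* kept a log2 fold change of 0.90 without the filter and then passed, with an adjusted p of 0.000604. *IL18* did not pass with limma, at 0.36 in each of the 3 fits, and ranged from 0.34 to 0.45 with a library left out. *IL1B* turned to -0.034, -0.046 and -0.034 with limma and ranged from -0.17 to 0.28 with a library left out. The cause was not tested. *IL1RN* and *IL1R1* kept their direction and missed the adjusted p under all 15 alternatives.

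The replicate numbers were not shown to pair the libraries: the deviations of same-numbered libraries from their group means correlated at 0.053, 0.033 and 0.015, each the highest for its CRE library, which is a hint from the data and not from the design. With the replicate block 78 genes were called higher and 241 lower, *IL18* had an adjusted p of 0.0177 and *IL1A* of 0.0951 (edgeR), and no call among the family changed.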

Other observations

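IL-18 and its soluble decoy were read together per length. *IL18BP* per *IL18* in TPM was 0.129, 0.119 and 0.137 in CRE and 0.0918, 0.114 and 0.115 in CRE + VAF347. The groups did not overlap, but the lowest CRE value (0.119) was close to the highest CRE + VAF347 value (0.115). In CPM, 27.3% of all genes tested did not overlap either. The means of the ratio were 0.128 ± 0.00893 and 0.107 ± 0.0133 (SD, n = 3). *IL18BP* itself had a log2 fold change of 0.08 (adjusted p = 0.612, edgeR). This ratio was chosen after the values were seen and was not tested.

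*IL1RN* per *IL1A* in TPM was 4.03, 1.64 and 2.96 in CRE and 0.946, 1.10 and 1.20 in CRE + VAF347, also chosen after the values were seen and without a test.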
